A study of Rattus norvegicus with 4 samples.

Results

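Immediate early transcription factors are encoded by genes that are switched on within minutes of a stimulus, with no need for new protein synthesis, and the 10 described here were Fos, Fosb, Fosl2, Jun, Junb, Egr1, Egr2, Egr3, Atf3 and Ier2. They were chosen by name as well-known members of this class, with earlier results of these data known. The accession of each probe was matched to a gene symbol, and all 10 were found among the 26633 genes and transcripts on the array. The samples were soleus, a slow postural calf muscle, of male rats in 4 groups. Normal muscle and muscle regenerated for 8 weeks after an injection of CTX (an abbreviation the labels do not expand) came from rats aged 16 weeks. Overloaded muscle, labelled hypertrophied, and regenerated muscle after overloading came from rats aged 18 weeks. The labels give no strain, no dose of CTX, and neither the way nor the length of the overload. Both regenerated samples carry the letter L in their titles and the 2 uninjured ones R, letters that are not expanded, and no label says whether groups share animals. Each group was 1 one-colour Agilent array of RNA mixed in equal amounts from 6 muscles, so the spread between animals was not measured, no test between groups was possible and no p-value is given.

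FOS and JUN proteins pair through leucine zippers to form AP-1, a factor that binds DNA near many genes of growth, matrix turnover and inflammation, and ATF3 joins the same family of dimers. EGR1, EGR2 and EGR3 are zinc finger factors that bind a G-rich site. Both families lie downstream of the MAP kinases and of serum response factor (SRF), and their transcripts are known to rise in skeletal muscle with contraction, stretch and injury, usually for a short time.

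Levels are given as the processed spot intensity divided by the 75th percentile of its array, averaged over the spots of a probe on the log2 scale. That percentile lay between 662 and 817 intensity units on the 4 arrays, and 60.2% to 70.4% of spots were well above background, fewest on the normal array. A gene counts as measured in a comparison where either array had its probe well above background, and as higher or lower from 2-fold. Standard errors (SE) come from repeated spots and cover technical error within an array only. The 10 genes had 12 probes and 38 spots on each array. Fos, Fosb, Jun, Junb, Egr1, Atf3 and Ier2, 7 in all, were above background on all 4 arrays, Fosl2 and Egr2 on all but the normal array, and Egr3 on none. Among myofibre markers 4 of 5 were on the array, all 4 were above background on every array, and their summed level was 1517 in normal and between 1118 and 1269 in the other muscles. Rat age and slide row differed between the overloaded and the other arrays, and cannot be told apart from overload.

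Overload went with higher Fos, Egr1 and Egr2, both in uninjured muscle and after regeneration, and with smaller differences in Junb and Ier2. In overloaded against normal muscle 3 of 9 measured members were higher by 2-fold or more, and none was lower. Egr2, 1 of the 3, and Fosl2 have only lower bounds there, being below background on the normal array. The count was 2 when both arrays had to be above background. Among all 17308 genes measured in that comparison 2.42% were higher by 2-fold or more and 0.74% lower, 3.15% in all. In regenerated overloaded against regenerated muscle the same 3 of 9 members were higher and none was lower. Among all 17208 measured genes 1.55% were higher and 0.442% lower there, 1.99% in all. The members were chosen with earlier results of these data known, so these shares are no test of the list. Across the array 96 genes, 0.574% of those measured in both comparisons, were higher by 2-fold or more in both, which is 24.1% of the genes higher in the first and 44.2% of those higher in the second. The median log2 difference of the members above background on both arrays was 0.36 over 7 members without injury and 0.48 over 9 members after regeneration, against -0.12 and -0.02 over all genes.

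**Figure D1:**
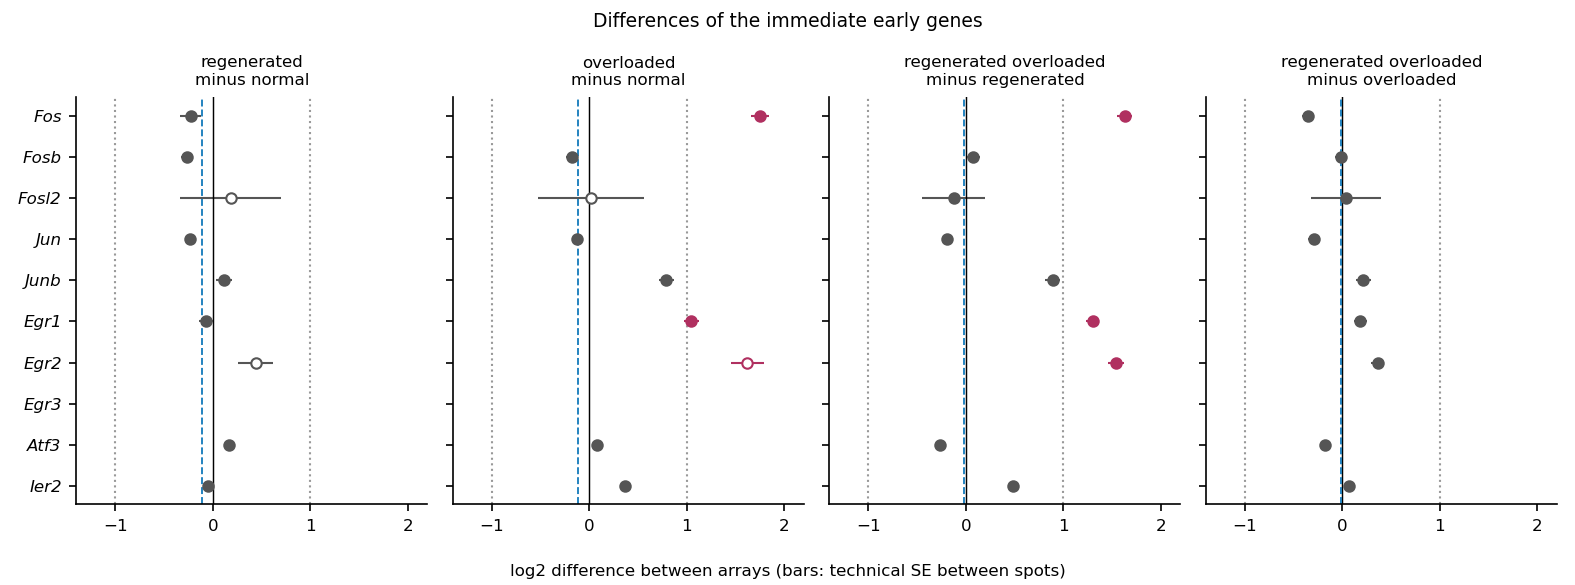
Log2 differences of the 10 genes in the 4 comparisons, 1 panel each, with technical standard errors as bars, dotted lines at 2-fold and a dashed line at the median of all genes. Fos, Egr1 and Egr2 lie past 2-fold in both overload panels and no gene does in the other panels; open symbols are lower bounds, and Egr3, below background on every array, has no symbol.

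Fos, the founding subunit of AP-1, had a level of 0.327 in normal, 0.279 in regenerated, 1.1 in overloaded and 0.863 in regenerated overloaded muscle. Both overloaded arrays were high and both others low. Its 2 spots read 213 and 220 intensity units on the normal array, 210 and 204 on the regenerated array, 957 and 846 on the overloaded array, and 679 and 685 on the regenerated overloaded array. Every spot on an overloaded array was thus brighter than every spot on an array without overload. The log2 difference was 1.75 (SE 0.09), or 3.37-fold, with overload in uninjured muscle. In regenerated muscle it was 1.63 (SE 0.08), or 3.09-fold. Among genes above background on both arrays, Fos ranked number 32 of 14458 from the top in the first comparison and number 30 of 16195 in the second.

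Of the other FOS family members on the list, Fosb did not share this, and Fosl2 did not after regeneration. Fosb, a partner of JUN proteins known to accumulate with repeated stimulation, had a level of 1.33 in normal, 1.11 in regenerated, 1.18 in overloaded and 1.17 in regenerated overloaded muscle. Its overload differences were -0.17 (SE 0.06) and 0.08 (SE 0.06) on the log2 scale, both inside 2-fold, and the first was -0.0018 with the submitters' scaling. Fosl2, which encodes the FOS-related subunit FRA2, was close to background. Its brighter probe had a level of 0.0302 in normal muscle, not well above background there, and of 0.0493, 0.0440 and 0.0452 in regenerated, overloaded and regenerated overloaded muscle. The 3 measured levels lay within 1 SE of each other, and the log2 difference with overload after regeneration was -0.12 (SE 0.32). In uninjured muscle Fosl2 was at least 0.02 (SE 0.54) higher with overload, a bound that does not settle whether the difference reached 2-fold. The second Fosl2 probe, at 0.0178 to 0.0276, was not well above background on any array.

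**Figure D2:**
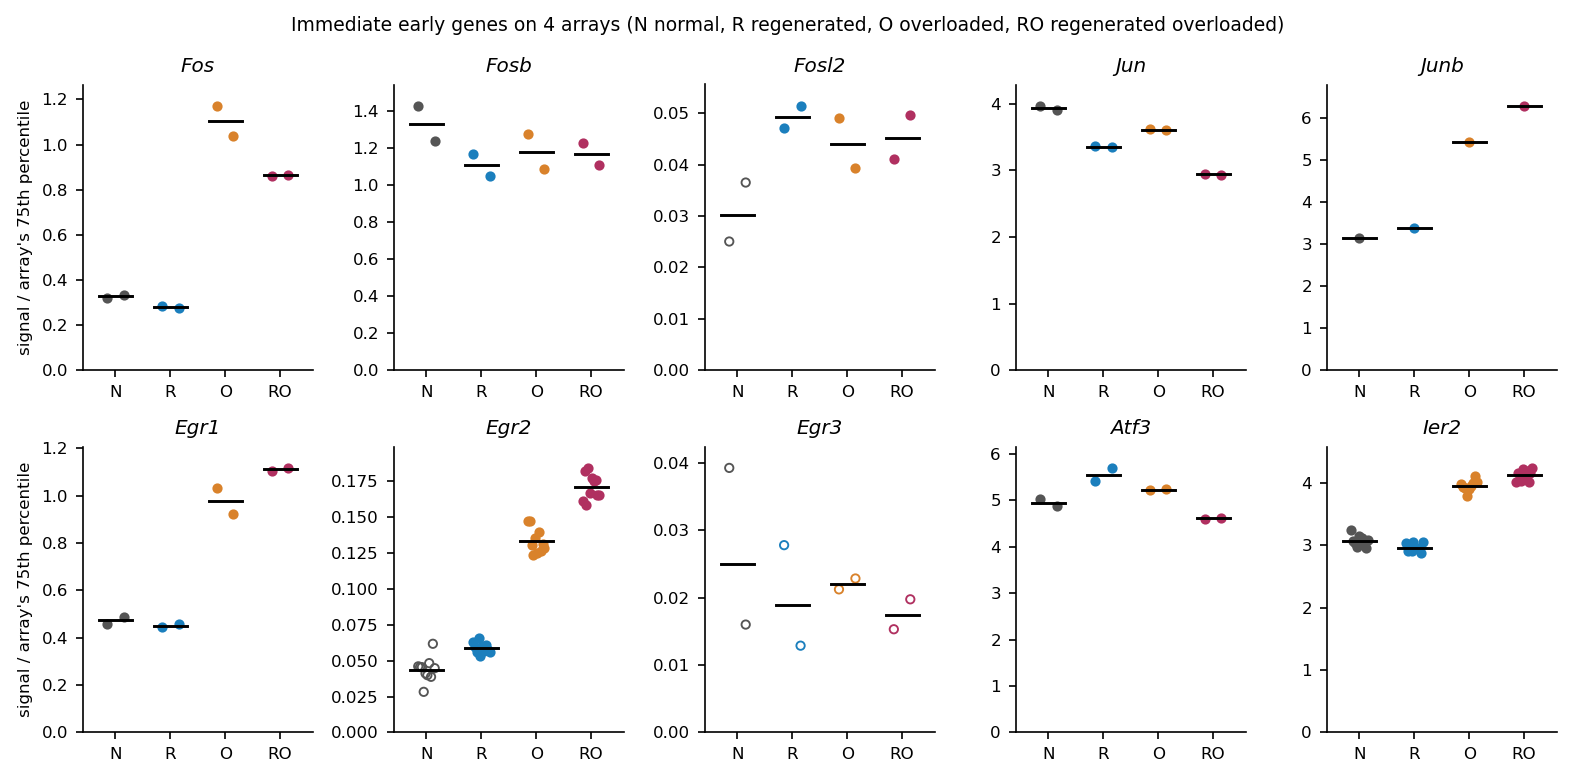
Level of each of the 10 genes (processed intensity over the array's 75th percentile, linear axis from 0) on the normal (N), regenerated (R), overloaded (O) and regenerated overloaded (RO) arrays. Points are single spots, open where the probe was not above background, and lines the mean over spots; Fos, Junb, Egr1, Egr2 and Ier2 are higher on both overloaded arrays than on both others, and Jun, Fosb and Atf3 are not.

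Jun, the main DNA-binding partner of FOS in AP-1, had a level of 3.94 in normal, 3.36 in regenerated, 3.61 in overloaded and 2.94 in regenerated overloaded muscle. The 4 levels lay within 2-fold of each other, highest in normal and lowest in regenerated overloaded muscle. The overload differences were -0.13 (SE 0.06) and -0.19 (SE 0.06), and the first took the other sign under another scaling of the arrays, with a range of -0.13 to 0.05. The submitters' own scaling moved the median of all genes from -0.12 to 0.05 in overloaded against normal muscle and from -0.11 to 0.02 in regenerated against normal muscle, and differences of every gene moved by about that shift. Differences as small as those of Jun are therefore not read as a direction. Junb, a JUN family subunit with weaker activation than JUN, did differ with overload but inside 2-fold. It had a level of 3.15 in normal, 3.40 in regenerated, 5.43 in overloaded and 6.31 in regenerated overloaded muscle. The overload difference was 0.79 (SE 0.08), or 1.72-fold, in uninjured muscle and 0.89 (SE 0.08), or 1.85-fold, after regeneration. Junb was read from 1 spot per array, so its SE is that of other probes of like signal. It ranked number 606 of 14458 and number 232 of 16195 genes from the top.

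Egr1, the EGR factor known for its response to serum and stretch, had a level of 0.473 in normal, 0.451 in regenerated, 0.977 in overloaded and 1.11 in regenerated overloaded muscle. As with Fos, both overloaded arrays were high, but here the regenerated overloaded array was the highest. Its 2 spots read 303 and 324 intensity units on the normal array, 328 and 340 on the regenerated array, 844 and 754 on the overloaded array, and 872 and 882 on the regenerated overloaded array. The spots of the overloaded arrays did not overlap those of the others. The log2 difference with overload was 1.05 (SE 0.08), or 2.07-fold, in uninjured muscle. It was 1.3 (SE 0.06), or 2.46-fold, in regenerated muscle. The first value stood near the threshold and fell to 0.92 without the outer 16 rows of spots, where 1 of the 2 Egr1 spots lay, and to 0.97 with normexp background correction.

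Egr2, an EGR factor known for its roles in Schwann cells, tendon and lymphocytes, was dim, with 10 spots on each array. Its level was 0.0433 in normal, 0.0588 in regenerated, 0.133 in overloaded and 0.171 in regenerated overloaded muscle. On the normal array 2 of the 10 spots were well above background, so its level there is only a bound. The spots ranged from 18.7 to 40.9 intensity units on the normal array, 39.5 to 48.5 on the regenerated array, 101 to 120 on the overloaded array and 125 to 146 on the regenerated overloaded array. The spots of the 2 overloaded arrays lay above all those of the other arrays. Egr2 was at least 3.07-fold higher in overloaded than in normal muscle, taking the lowest probe signal called well above background on the normal array as its level there. In regenerated muscle the log2 difference with overload was 1.54 (SE 0.08), or 2.91-fold. Normexp correction, which adds an offset that pulls dim probes together, gave 0.48 and 0.76 in place of these. Schwann cell markers, all 5 above background on every array, had a summed level of 2.63 in normal, 2.58 in regenerated, 2.76 in overloaded and 2.11 in regenerated overloaded muscle. Most of that sum was Mbp, at 1.95, 1.70, 1.91 and 1.16 in the same order, while S100b stood at 0.374, 0.602, 0.553 and 0.730. The part of Schwann cells in the Egr2 differences was not tested.

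Egr3, an EGR factor required for muscle spindles, was read from 2 probes. The brighter had a level of 0.0251 in normal, 0.0189 in regenerated, 0.0220 in overloaded and 0.0174 in regenerated overloaded muscle, and neither probe was well above background on any array. No fold is given for it. Of 5 muscle spindle genes 3 were measured, and none was counted as higher or lower by 2-fold in any comparison. Among all measured genes 1.69% to 3.15% were, so a count of 0 describes these genes no further. The slow-tonic myosin gene Myh7b had log2 overload differences of -0.56 (SE 0.08) in uninjured muscle and -0.70 (SE 0.08) after regeneration. The myosin gene Myh6 had -0.21 (SE 0.05) and -0.14 (SE 0.05). Its level was 419 in normal muscle, beside 375 for the myofibre marker Myh7, so it is not read as a signal of spindles alone. The neurotrophin gene Ntf3 was at least 0.23 higher in uninjured muscle and had -0.05 (SE 0.32) after regeneration.

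Egr2, Ier2 and Junb differed with overload, and the stretches just upstream of their start sites are shown. They come from RefSeq's promoter table (rat, assembly GRCr8). Egr1 also differed and is held there, but only its motif matches are given. The promoter table holds 6 of the 10 members, Fosb, Fosl2, Egr1, Junb, Ier2 and Egr2, and no promoter of Fos, Jun, Egr3 or Atf3 was used. Each line gives the 160 bases before the annotated start, read 5′ to 3′ along the gene, with capitals marking matches to the CArG box (the site of SRF), the cyclic AMP response element TGACGTCA (CRE) or the partial CRE TGACG on either strand.
Egr2, chr20:21054442-21054601, minus strand: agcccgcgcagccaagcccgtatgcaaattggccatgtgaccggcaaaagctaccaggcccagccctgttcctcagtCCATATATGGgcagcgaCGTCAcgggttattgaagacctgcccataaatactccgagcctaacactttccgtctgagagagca
Ier2, chr19:40399213-40399372, plus strand: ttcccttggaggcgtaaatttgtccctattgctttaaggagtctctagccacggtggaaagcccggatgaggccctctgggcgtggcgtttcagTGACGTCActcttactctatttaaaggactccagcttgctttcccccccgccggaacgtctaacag
Junb, chr19:40080966-40081125, plus strand: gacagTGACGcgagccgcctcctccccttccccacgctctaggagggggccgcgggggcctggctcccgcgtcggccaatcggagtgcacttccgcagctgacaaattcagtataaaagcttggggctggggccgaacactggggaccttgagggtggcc
Matches were counted in the 250 bases before the start, on both strands. Egr2 had 1 CArG box, 83 bases before the start, with a partial CRE at 66 bases. Egr1 had 2 CArG boxes, at 105 and 83 bases, and partial CREs at 135 and 66 bases. A CArG box was found in 501 of all 33469 promoters in the table (1.5%). Ier2 had no CArG box in this window but a whole CRE at 66 bases, a motif found in 1.59% of promoters, and the partial matches on its 2 strands overlap it. Junb had 1 partial CRE, at 155 bases, a motif found in 18.2% of promoters. Fosl2 had 1 EGR site (GCGNGGGCG), at 249 bases, found in 4.29% of promoters, and Fosb had none of these motifs. The AP-1 site TGANTCA, found in 6.34% of promoters, was in none of the 6. A match describes the letters in this window and shows no binding.

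**Figure D3:**
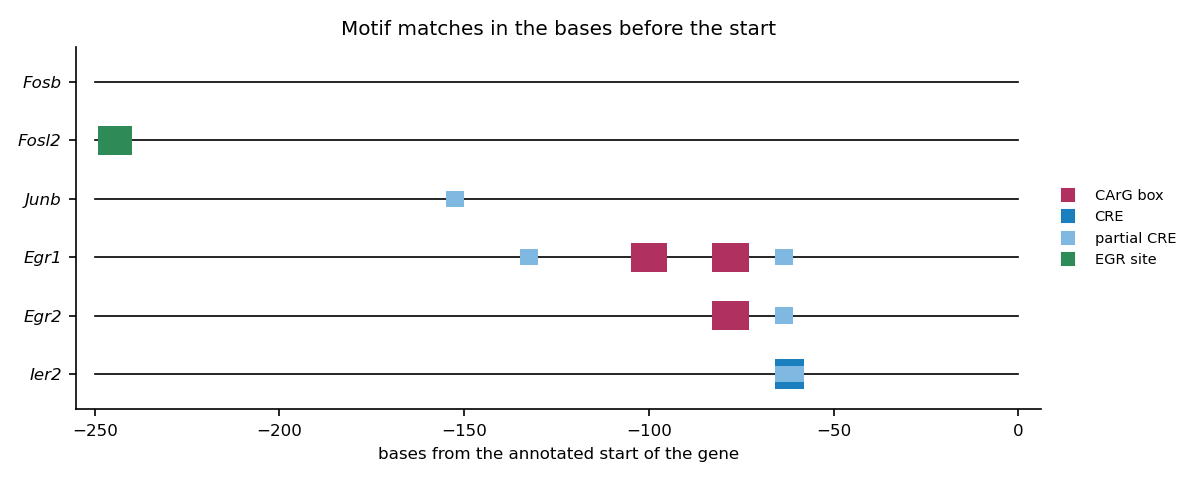
Places of motif matches in the 250 bases before the start of the 6 genes with a promoter in the table, as distance from the start in bases. The CArG boxes of Egr1 and Egr2 and the CRE of Ier2 lie within 105 bases of the start; Fosb has no match.

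Atf3, a stress-induced factor that acts mostly as a repressor, did not differ by 2-fold. It had a level of 4.95 in normal, 5.55 in regenerated, 5.23 in overloaded and 4.62 in regenerated overloaded muscle. The overload difference was 0.08 (SE 0.05) on the log2 scale in uninjured muscle and -0.27 (SE 0.05) after regeneration. Of 12 partners of Atf3 in the stress response, all measured, none was higher or lower by 2-fold in any of the 4 comparisons. Among all measured genes 1.69% to 3.15% were, and a count of 0 is close to those shares. The median overload differences of the partners were -0.38 and -0.25, against -0.12 and -0.02 over all genes. Asparagine synthetase (Asns) had 0.91 (SE 0.26) in uninjured muscle and 0.61 (SE 0.11) after regeneration. The growth arrest genes Gadd45g, at -0.83 (SE 0.06) and -0.86 (SE 0.06), and Gadd45b, at -0.69 (SE 0.06) and -0.55 (SE 0.06), were lower.

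Ier2, a small nuclear protein of the serum response, had a level of 3.07 in normal, 2.96 in regenerated, 3.95 in overloaded and 4.13 in regenerated overloaded muscle. Both overloaded arrays were higher, by less than for Junb. It was read from 9 or 10 spots on each array, 1 outlier spot being left out on the normal and 1 on the overloaded array. The spots ranged from 1958 to 2142 intensity units on the normal array, 2125 to 2254 on the regenerated array, 3088 to 3352 on the overloaded array and 3164 to 3347 on the regenerated overloaded array. The overload difference was 0.36 (SE 0.03), or 1.29-fold, in uninjured muscle and 0.48 (SE 0.03), or 1.39-fold, after regeneration. These differences were several times their technical SE and stayed inside 2-fold.

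No member was counted past 2-fold after regeneration alone, as for most genes on the array. In regenerated against normal muscle 0 of 9 measured members were higher or lower by 2-fold, where 1.25% of all 16911 measured genes were higher and 0.662% lower, 1.92% in all. The log2 differences of the 7 members measured on both arrays lay between -0.26 (Fosb, SE 0.06) and 0.17 (Atf3, SE 0.06). Fos stood at -0.23 (SE 0.10) and Egr1 at -0.07 (SE 0.08). Egr1, with a range of -0.08 to 0.06, and Ier2, at -0.05 (SE 0.03) with a range of -0.05 to 0.08, changed sign under other scalings. Egr2 was at least 0.44 (SE 0.18) higher on the log2 scale and Fosl2 at least 0.18 (SE 0.52). These bounds fell to 0 and 0.05 under other settings. The median over the 7 members was -0.07, against -0.11 over all genes.

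In regenerated overloaded against overloaded muscle, again 0 of 9 members differed by 2-fold, where 1.01% of all 17493 measured genes were higher and 0.68% lower, 1.69% in all. The log2 differences ran from -0.35 (SE 0.06) for Fos to 0.36 (SE 0.07) for Egr2. The 2 genes with the largest overload differences thus stood on opposite sides here. Jun was at -0.30 (SE 0.06), Atf3 at -0.18 (SE 0.05), Junb at 0.22 (SE 0.07) and Egr1 at 0.19 (SE 0.06). The median over the 9 members was 0.04, against -0.01 over all genes.

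The overload difference after regeneration was set against that in uninjured muscle as a difference of differences, whose median over all genes was 0.07 on the log2 scale. It was -0.12 (SE 0.12) for Fos and 0.10 (SE 0.11) for Junb, about as large as the technical error. Egr1, at 0.25 (SE 0.10), and Ier2, at 0.12 (SE 0.04), had somewhat larger overload differences after regeneration. Fosb had 0.25 (SE 0.09) and Atf3 -0.35 (SE 0.08), in both cases with opposite signs in the 2 kinds of muscle. In each case at least 1 of the overload differences was as small as those of Jun, so these signs are not read as directions. Jun had -0.06 (SE 0.08). With 1 pool per group no test of these values was possible. The signs of Ier2, with a range of -0.01 to 0.12, and of Junb, with -0.03 to 0.10, changed under other scalings.

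**Figure D4:**
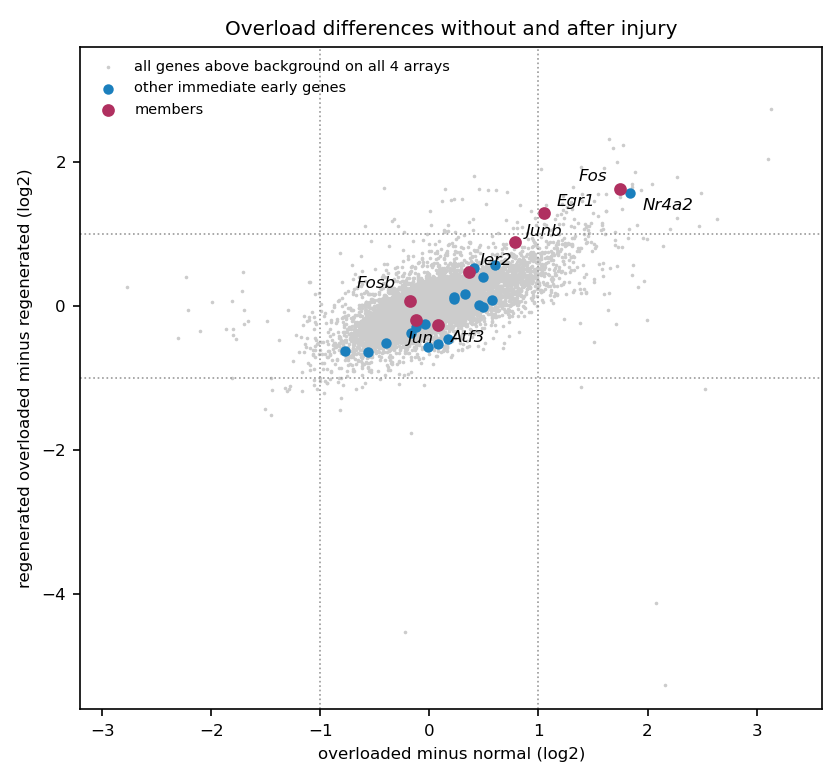
Log2 overload difference in uninjured muscle (x axis) and after regeneration (y axis) of each gene above background on all 4 arrays (grey) of the members (red) and of other immediate early genes (blue, Nr4a2 named), with dotted lines at 2-fold. Fos lies at 1.75 and 1.63 and Egr1 at 1.05 and 1.3, while Jun, Fosb and Atf3 lie near the centre of the grey points.

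Of 16 upstream regulators measured, among them SRF, its ETS partners and MAP kinases, none was higher or lower by 2-fold in any comparison, where 3.15% and 1.99% of all genes were in the overload comparisons. A count of 0 is close to those shares and describes these genes no further. Their median overload differences were -0.07 and -0.07. Srf itself had -0.16 (SE 0.05) and -0.15 (SE 0.05). Elk3, an ETS partner of SRF, had 0.57 (SE 0.26) and 0.36 (SE 0.15), and Elk1, another, -0.51 (SE 0.20) and -0.35 (SE 0.20). The kinase gene Rps6ka1 had 0.57 (SE 0.08) and 0.24 (SE 0.07), and Mapk9, a JNK kinase gene named after its values were seen, had 0.24 (SE 0.25) and 0.60 (SE 0.15). Of the feedback inhibitors 12 of 15 on the array were measured and none passed 2-fold in any comparison. Their median overload differences were -0.23 over the 11 above background on both arrays and -0.09 over 12. With the lower bound of the remaining gene counted the first was 0.004. Over the alternative settings the first ranged from -0.32 to 0.39, so it is not read as a direction. Nab2, a corepressor that binds EGR proteins, had 0.64 (SE 0.10) without injury and 0.06 (SE 0.07) after regeneration. Dusp8, a MAP kinase phosphatase, had -0.82 (SE 0.07) and -0.62 (SE 0.07), and Spry2, an inhibitor of growth factor signalling, 0.59 (SE 0.26) and -0.04 (SE 0.20). Spred1, of the same class of inhibitors, was at least 0.59 higher in uninjured muscle and had -0.05 (SE 0.32) after regeneration.

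Of the other AP-1 and EGR family subunits 9 of 10 were measured in each overload comparison. None was counted past 2-fold in uninjured muscle, where 3.15% of all measured genes were. After regeneration 1 was, against 1.99% of all measured genes. The 1 gene counted was Fosl1, which encodes FRA1, a FOS family subunit without the strong activation domain of FOS. Its level was 0.0177 in normal and 0.0201 in regenerated muscle, both not well above background, and 0.0569 in overloaded and 0.0720 in regenerated overloaded muscle. It was at least 3.28-fold higher with overload after regeneration, a value of 0.40 on the log2 scale with normexp correction. In uninjured muscle it was at least 1.31-fold higher, a weaker bound because the lowest signal called well above background was higher on the normal array, so these data do not settle whether the difference there reached 2-fold. Batf, a BATF family partner of JUN proteins, was at least 0.50 higher on the log2 scale in overloaded than in normal muscle and had 0.12 (SE 0.26) after regeneration. Atf4, a stress-response factor, had -0.48 (SE 0.03) and -0.06 (SE 0.02), and Batf3 0.12 (SE 0.37) and 0.06 (SE 0.21).

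Of 20 other immediate early genes 19 were measured in overloaded against normal muscle. There 2.42% of all measured genes were higher by 2-fold, and 1 of the 19 was. That gene was Nr4a2, an orphan nuclear receptor, with a level of 0.840 in normal, 0.689 in regenerated, 3.01 in overloaded and 2.04 in regenerated overloaded muscle. As with Fos, both overloaded arrays were high and the overloaded array was the highest. The log2 overload difference of Nr4a2 was 1.84 (SE 0.09) in uninjured muscle and 1.57 (SE 0.09) after regeneration. It was read from the brighter of 2 probes, with 1 spot per array. Its relative Nr4a1, named after its values were seen, had 0.49 (SE 0.03) and 0.41 (SE 0.03). Ier3, an apoptosis regulator, had -0.77 (SE 0.03) and -0.62 (SE 0.03), Btg2, an antiproliferative gene, 0.60 (SE 0.06) and 0.57 (SE 0.06), and Ier5l 0.58 (SE 0.06) and 0.09 (SE 0.06). Errfi1, an inhibitor of the EGF receptor, was the only 1 of the 20 higher by 2-fold in regenerated against normal muscle, at 1.21 (SE 0.06). Among all measured genes 1.25% were higher in that comparison. With overload Errfi1 had -0.02 (SE 0.06) in uninjured muscle and -0.57 after regeneration. The median overload differences of the list were 0.23 and -0.01.

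Of 20 known AP-1 and EGR target genes 16 were measured. In overloaded against normal muscle 2 were higher by 2-fold, in regenerated overloaded against regenerated muscle 3, in regenerated against normal muscle 1, and none was lower. Among all measured genes 2.42%, 1.55% and 1.25% were higher in these comparisons, in the same order. Mmp14, a membrane-bound matrix metalloproteinase, had a level of 1.37 in normal, 3.31 in regenerated, 6.61 in overloaded and 7.73 in regenerated overloaded muscle. Unlike Fos and Egr1 it was already higher after regeneration alone, by 1.27 (SE 0.03) on the log2 scale. Ccl2, a chemokine that attracts monocytes, had 0.248 in normal, 0.316 in regenerated, 0.574 in overloaded and 0.766 in regenerated overloaded muscle. Its log2 overload differences were 1.21 (SE 0.05) and 1.28 (SE 0.03), the first being 0.94 with normexp correction. Timp1, an inhibitor of metalloproteinases, had overload differences of 0.80 (SE 0.02) and 1.17 (SE 0.02). The adhesion molecule gene Icam1 and the growth factor gene Tgfb1 had 0.74 (SE 0.05) and 0.63 (SE 0.16) in uninjured muscle, and 0.14 (SE 0.04) and -0.14 (SE 0.10) after regeneration. Hbegf, of the same list, was lower with overload in uninjured muscle. Its level was 0.294 in normal, 0.247 in regenerated, 0.192 in overloaded and 0.251 in regenerated overloaded muscle. The median overload differences of the 16 measured targets were 0.30 in uninjured muscle and 0.006 after regeneration. In regenerated against normal muscle their median was 0.38.

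Markers of other cells in muscle also moved with the groups. Summed levels of 4 fibroblast markers, mostly those of the collagen genes Col1a1 and Col3a1, were 31.0 in normal, 86.8 in regenerated, 121 in overloaded and 165 in regenerated overloaded muscle. Those of 6 macrophage markers were 2.69, 4.44, 4.76 and 5.16 in the same order. Of these 6 markers Itgam alone was lower than normal in every other muscle, at 0.132, 0.112, 0.0955 and 0.0889. Mrc1 was nearly level between normal and regenerated muscle, at 0.0993 and 0.101. The fibroblast and macrophage sums were thus higher in regenerated than in normal muscle. The neutrophil sum was 6.46 in normal and between 3.96 and 5.11 in the other muscles, nearly all of it from Ncf1, at 6.30 in normal, 4.30 in regenerated, 4.93 in overloaded and 3.74 in regenerated overloaded muscle. The other measured neutrophil markers had positive overload differences. S100a8 was at least 0.47 higher on the log2 scale in uninjured muscle and had 0.59 (SE 0.29) after regeneration, and S100a9 had 0.13 (SE 0.28) and 0.50 (SE 0.14). The neutrophil receptor gene Csf3r was not above background on any array. Endothelial markers summed to 9.98 to 10.8, smooth muscle markers to 4.19 to 4.61 and satellite cell markers to 1.11 to 1.27, with Pax7 not above background on any array. Single endothelial markers went both ways. From normal to regenerated overloaded muscle Pecam1 went from 4.14 to 5.45 and Cdh5 from 1.28 to 0.909. Adipocyte markers summed to 16.2, 29.8, 20.9 and 27.6 in normal, regenerated, overloaded and regenerated overloaded muscle. Most of that sum was Cfd, at 9.36, 20.5, 14.3 and 20.1 in the same order. The higher sum in overloaded than in normal muscle came from Cfd alone. Adipoq was lower there, and Fabp4 was nearly level, at 5.65 in normal and 5.56 in overloaded muscle. In such tissue RNA, more cells of a type and more RNA per cell cannot be told apart, and the part of these cells in the members' differences was not tested.

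Genes whose pattern over the 4 arrays was most like that of a member were sought among 9128 named genes above background on all 4 arrays, by the root mean square (RMS) difference of log2 levels, each centred on its own mean. The search covered the members above background on all 4 arrays that spanned 2-fold or more, which were Fos, Junb and Egr1. Nearest to Fos was Nr4a2, with an RMS difference of 0.08. Next came the kallikrein genes Klk1c2 (0.10) and Klk1 (0.11), which belong to a family of near-identical copies that their probes may not separate. Nearest to Junb were Ncam1 (0.03), a neural cell adhesion molecule, Fancb (0.06), a DNA repair gene, and Ccl7 (0.07), a monocyte chemokine. Nearest to Egr1 were the mitotic spindle genes Nusap1 (0.07) and Kif22 (0.09) and then Ston1 (0.09), an endocytosis gene. With normexp correction the RMS difference was 0.14 between Fos and Nr4a2, 0.21 between Junb and Ncam1 and 0.32 between Egr1 and Nusap1. With 4 points per gene, likeness of this kind describes these arrays alone.

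**Figure D5:**
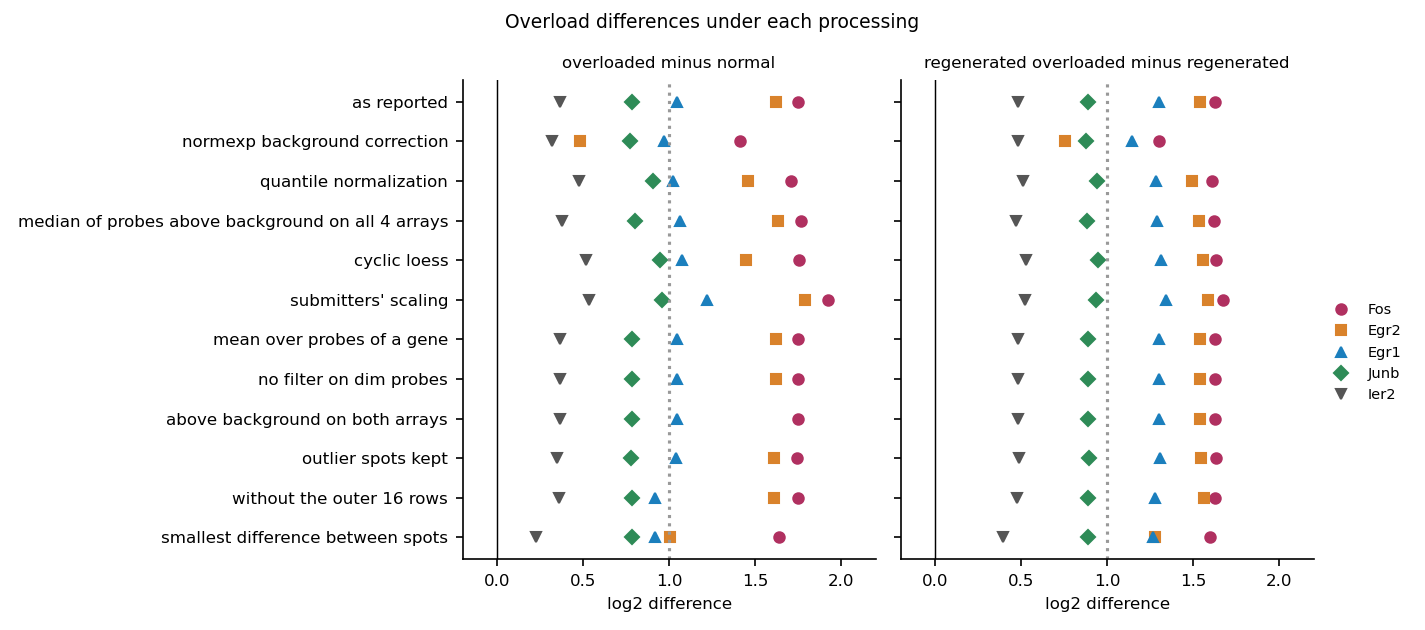
Log2 overload differences of Fos, Junb, Egr1, Egr2 and Ier2 as reported and under each alternative processing, in uninjured muscle (left) and after regeneration (right), with a dotted line at 2-fold. Fos stays past 2-fold throughout, Junb and Ier2 stay inside it, Egr1 crosses it in uninjured muscle under some alternatives, and Egr2 falls to 0.48 and 0.76 with normexp correction.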

How the data were processed

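Total RNA of 4 rat soleus pools was labelled with Cy3 and hybridised to 1 Agilent array each, per the labels. The deposited scanner files give each spot's processed intensity, background-subtracted by Feature Extraction (11.5.1.1 per the file headers, 10.10.1.1 per the submitters' processing notes), with flags (other). The authors' deposited table holds these intensities times 1 constant per array. Outlier spots were left out and none was saturated. Intensities were divided by the 75th percentile of their array, taken to log2 and averaged per probe, and a gene was read from its brightest probe. A probe was above background where most of its spots were flagged so. Against a probe below background, folds are lower bounds. Technical SEs pool the SD between spots in 20 signal bins. No test between groups was run. The fold calling was tested on simulated data. The settings tried as alternatives were 12, among them normexp (offset 50, on the median signal) and quantile and cyclic loess normalization in limma 3.58.1 (R 4.3.3). Named besides the members were list genes past 2-fold, up to 3 more per list by overload difference, and 3 like genes for each member that spanned 2-fold. Nr4a1, Srf, Mapk9 and single cell markers were added after their values were seen. The members and lists were chosen with earlier results of these data known. Gene names and promoters come from RefSeq (GRCr8). The files' build is rn4, so no probe coordinates are given.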

Additional observations from a re-analysis of the deposited data

Results flagged for a closer look

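The overload difference had opposite signs in uninjured and regenerated muscle for Fosb, at -0.17 and 0.08 (a difference of differences of 0.25 on the log2 scale), and for Atf3, at 0.08 and -0.27 (-0.35). The difference between regenerated and uninjured muscle had opposite signs without and with overload for Egr1, at -0.07 and 0.19 (0.25), for Atf3, at 0.17 and -0.18 (-0.35), and for Ier2, at -0.05 and 0.06 (0.12). In regenerated against normal muscle Egr1, with a range of -0.08 to 0.06, and Ier2, with -0.05 to 0.08, changed sign under other scalings. The first Fosb value was -0.0018 with the submitters' scaling. Each pair holds at least 1 difference as small as the overload differences of Jun, so these signs are not read as directions. All of these values lie inside 2-fold, each group is 1 pool, and the differences were not tested.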

How the results depend on the processing

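No paired analysis was possible because each group was 1 array, so the groups share fewer than 2 replicate numbers. The count of members past 2-fold in overloaded against normal muscle fell from 3 to 1 with normexp correction, where Egr1 and Egr2 dropped out. It was 2 when both arrays had to be above background, without the outer 16 rows, and with the smallest difference between spots, an alternative chosen after seeing the data. The count in regenerated overloaded against regenerated muscle was 2 with normexp correction. Both counts were 4 at a threshold of 1.5-fold, and the counts of 0 stayed at 0 under every alternative run. The log2 overload difference of Fos ranged from 1.41 to 1.92 in uninjured muscle and from 1.3 to 1.67 after regeneration, that of Junb from 0.77 to 0.96 and from 0.88 to 0.94, and that of Ier2 from 0.23 to 0.54 and from 0.40 to 0.53. The difference of differences under the submitters' scaling was -0.25 for Fos, 0.12 for Fosb, -0.19 for Jun, -0.025 for Junb, 0.12 for Egr1, -0.48 for Atf3 and -0.014 for Ier2. Under cyclic loess it was -0.16 for Jun, -0.00504 for Junb, -0.46 for Atf3 and 0.015 for Ier2, and under quantile normalization -0.16 for Jun, -0.47 for Atf3 and 0.035 for Ier2. With normexp correction it was -0.25 for Atf3 and 0.16 for Ier2, and without the outer rows 0.37 for Egr1. The cause was not tested. Of the other recomputed values (single genes, list medians, pattern distances and counts over all genes) 887 stayed close to the reported value and 181 moved by more than their technical SE, by more than 0.1 or, for counts, by more than 1.5 times, and no difference past 2-fold changed sign.

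Over all genes, calls in overloaded against normal muscle numbered 546, against 182 with normexp correction, 5698 without a filter on dim probes and 1907 at 1.5-fold. In regenerated against normal muscle they were 324, against 96, 2209 and 1353, and 199 with both arrays above background. In regenerated overloaded against regenerated muscle they were 342, against 101, 1460 and 1220, and 227 with both arrays above background. In regenerated overloaded against overloaded muscle they were 295, against 69, 1438 and 935, and 144 with both arrays above background. The submitters' scaling moved the share of calls that were higher from 76.6% to 89.6% in overloaded against normal muscle and from 65.4% to 78.0% in regenerated against normal muscle. Dim probes limit what can be said of Egr2, Egr3, Fosl1 and Fosl2, and Junb and Nr4a2 rest on 1 spot per array.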
